A study of Apis mellifera with 36 samples.

Results

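Brain gene expression was compared between 2 sets of worker honey bees (Apis mellifera) from a single colony, colony 6. The bees were its nurses and its unresponsive bees, 12 of the 36 bees in the series. They were divided by the number in their titles: bees numbered 205, 210 and 222 (6 bees, a nurse and an unresponsive bee for each number) against bees numbered 213, 230 and 237 (6 bees, likewise). This division came from the measured values themselves. It was prompted by the main components of expression in these data, which did not follow behavioural type. The difference between the sets is therefore described without a test, and the labels do not say what the number marks.

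The series measured RNA in single worker brains from 2 colonies whose queens had each been inseminated with semen from a single drone. Each colony gave 6 nurses, 6 guards and 6 unresponsive bees. The nurses tended a queen larva, the guards attacked an intruder, and the unresponsive bees showed no overt response in either repeated assay. All bees were 7 days old and had been kept from emergence in dishes of 10. The dissected tissue was, per the labels, an upper part of the midbrain with mostly the mushroom bodies and central brain, from which the hypopharyngeal glands had been removed. The labels name no drug, transgene or allele that distinguishes the groups. The 12 bees all carried few reads of a honey bee virus, deformed wing virus (DWV), at 2.60 to 41.6 per 1000000 library reads (RPM). The 6 colony 6 guards carry the same 6 numbers, and those numbered 213, 230 and 237 had high virus loads of 6673 to 8608 RPM, against 3.91 to 63.2 for those numbered 205, 210 and 222.

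The mushroom bodies are paired centres of the insect brain for learning, memory and the joining of signals from several senses. Young workers usually tend brood inside the nest and turn to tasks such as guarding and foraging as they age, and this change is known to go with changes in brain gene expression. Workers of a colony with a single father are more closely related than full sisters of most animals, since the father is haploid and gives each daughter the same genome. They still differ in what they inherit from the queen.

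The 12 libraries held 16.6 to 25.8 M (mega) counts over genes. The files list 15314 gene IDs, and 11113 of them passed the low-count filter in the 12 bees. None of the IDs could be matched to a gene name (0 of 15314), so genes are given by ID only, no function can be stated for them, and the labelled tissue could not be checked against marker genes of the mushroom bodies, the glands or any other cell type. None of the 5 library measures tested passed between the sets, which does not show that the sets were alike. The share of reads with no unique alignment was not among the 5. It ran from 2.72% to 3.39% of counted reads in bees 205, 210 and 222 and from 2.65% to 2.82% in the others. Gene counts were 19.2 ± 0.755 M in bees 205, 210 and 222 and 20.8 ± 3.27 M in bees 213, 230 and 237 (SD, n = 6 each; exact permutation within type over 400 arrangements, two-sided p = 0.325). The reads assigned to no gene, those ambiguous between genes, the reads mapped to the genome and the DWV load gave p from 0.140 to 0.540 in the same exact test. Adjusted over the 5 measures, p was 0.54 for each. Those tests permuted bees within type. When whole numbers were permuted instead, so that bees of a number stayed together, the exact p was 0.3 to 0.7 for the 5 measures, and with 20 arrangements it could not go below 0.1.

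The strongest axis in these 12 bees ran along the number sets and not along behavioural type, which is what the division was chosen on. The first component of log2 CPM (counts per 1000000 gene counts, TMM-scaled) took 26.2% of the variance and the second 14.4%. On the first component Nurse 210 scored 40.0, Nurse 222 17.6, Nurse 205 17.3, Unresponsive 210 16.6 and Unresponsive 205 15.7. Unresponsive 222 scored -10.4 and lay among the bees numbered 213, 230 and 237, which ran from -22.9 to -8.83. So 5 of the 6 bees of the first set lay apart from the other set on this axis, and 1 did not. Few genes carried it: the 100 heaviest of 11113 genes held 67.0% of its weight.

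**Figure D1:**
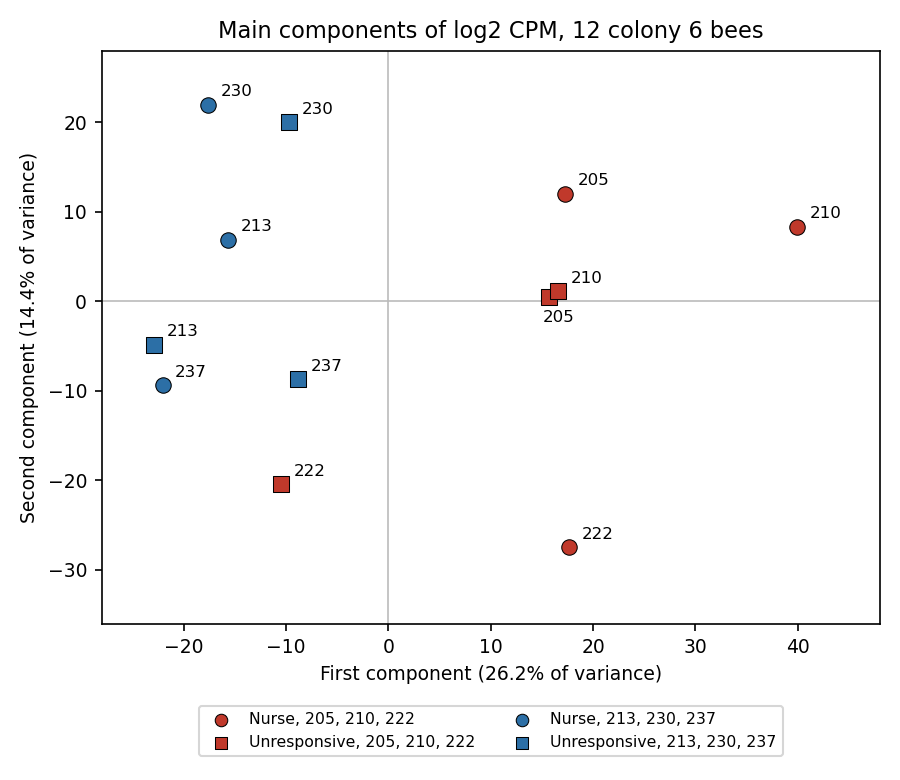
Scores of the 12 colony 6 bees on the first component (horizontal axis, 26.2% of variance) and the second component (vertical axis, 14.4%) of log2 CPM, in arbitrary units. Colour gives the number set, the symbol gives the behavioural type and the label gives the title number. Red points lie at 15.7 to 40.0 on the first component except Unresponsive 222 at -10.4, and blue points lie at -22.9 to -8.83.

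A small number of genes differed greatly between the sets. Genes were counted where the fitted difference was at least 1.5-fold and every bee of 1 set lay above every bee of the other. By this rule 14 of 11113 genes (0.126%) were higher in bees 205, 210 and 222, and 4 (0.036%) were higher in bees 213, 230 and 237. In the first direction the differences were very large, with a median log2 difference of 6.64 and 12 of 14 genes over 16-fold. In the other direction they were small and in weakly expressed genes, with a median log2 difference of -0.92 and mean levels of 0.395 to 2.21 CPM. Over all 11113 genes the median log2 difference was 0.00 when rounded, and the middle 90% of genes lay between -0.32 and 0.28. Since the bees were divided by components of the same expression values, these counts are a description. In bulk tissue, a higher level from more cells of a type and from more RNA per cell cannot be told apart.

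GB55204 had the largest difference of the 14. Its level was 58.5 CPM in Nurse 205, 134 in Nurse 210 and 1563 in Nurse 222, and 18.3 CPM in Unresponsive 205, 14.3 in Unresponsive 210 and 1.99 in Unresponsive 222. In the other set it was 0.0791 CPM in Nurse 213, 0.0493 in Nurse 230 and 0.221 in Nurse 237, and 0.0443 CPM in Unresponsive 213, 0 in Unresponsive 230 and 1.02 in Unresponsive 237. The sets did not overlap, but the gap between Unresponsive 222 and Unresponsive 237 was narrow beside the spread within the first set. The 6 bees of the first set gave 33378 reads of this gene and the 6 of the other set 25. Means were 298 ± 621 and 0.236 ± 0.392 CPM (SD, n = 6 each), a fitted log2 difference of 10.39 ± 1.81 (SE). Without Nurse 222 the fitted log2 difference was 7.73, and without Unresponsive 237 it was 12.08.

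GB45796, the next by size among genes with a mean of at least 4 CPM, ran the same way in every bee. It stood at 32.7 CPM in Nurse 205, 150 in Nurse 210 and 762 in Nurse 222, and at 22.0 in Unresponsive 205, 19.3 in Unresponsive 210 and 1.10 in Unresponsive 222. In the other set it had no read in Nurse 213 and Unresponsive 230 and reached at most 0.840 CPM, in Unresponsive 237. Nurse 222 was again highest and Unresponsive 222 again the lowest of the first set. The fitted log2 difference was 9.61 ± 1.63 (SE), from means of 165 ± 298 and 0.224 ± 0.316 CPM (SD, n = 6 each). It was 7.81 without Nurse 222 and 10.90 without Unresponsive 237.

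The low place of Unresponsive 222 was common to most of the 14 genes, and the high place of Nurse 222 was not. Unresponsive 222 was the lowest bee of its set in 12 of the 14. The highest bee was Nurse 210 in 7, Nurse 222 in 6 and Unresponsive 210 in 1. Fitted within each type, the set difference had a median log2 value of 7.54 in nurses, ranging from 0.47 to 12.30, and 5.21 in unresponsive bees, ranging from 0.76 to 7.57. It was larger in nurses for 12 of the 14 genes. For 1 of the 14 no bee of the lower set had a read. With that gene placed at a bound of 3 reads over those 6 bees, the median log2 difference of the 14 was 6.53. The nearest genes on either side of the 1.5-fold line, among genes without overlap, had log2 differences of 0.61 and 0.43 in this direction and of -0.61 and -0.57 in the other.

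The summed level of the 14 genes shows how far each bee stood from the others, although it follows chiefly the genes with the most reads. It was 311 CPM in Nurse 205, 1745 in Nurse 210 and 4651 in Nurse 222. It was 411 CPM in Unresponsive 205, 792 in Unresponsive 210 and 75.5 in Unresponsive 222. The 6 bees of the other set lay close together, between 18.7 and 27.2 CPM with a median of 21.3. The bees of the first set thus spread over a wide range above a narrow floor, and the unresponsive bee numbered 222 lay nearest to it while the nurse with the same number lay farthest from it. The reads with no unique alignment moved with this in part: they made up 3.39% of counted reads in Nurse 222 and 2.65% to 2.99% in the other 11 bees, and their part in the result was not tested.

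**Figure D2:**
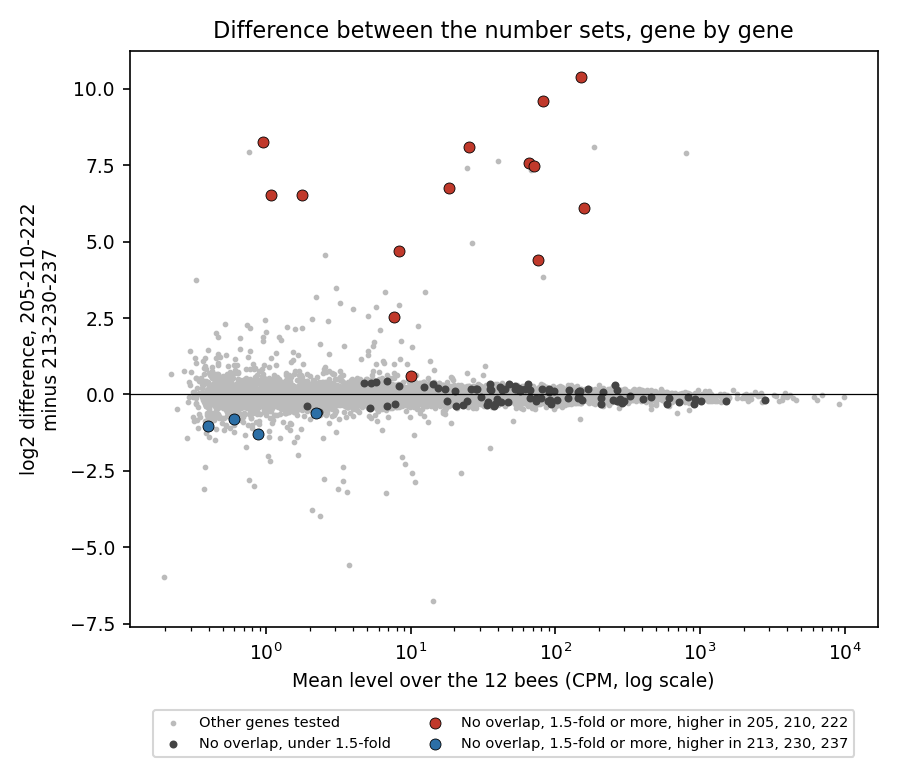
Fitted log2 difference between the number sets (vertical axis, positive where bees 205, 210 and 222 were higher) against the mean level over the 12 bees in CPM (horizontal axis, log scale) for 11113 genes. Red and blue points are the 14 and 4 counted genes, dark points the other genes without overlap, and grey points the rest. Most red points stand far above the band of other genes, while the blue points lie at low levels near it.

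Among genes over 16-fold higher in its set, Unresponsive 222 also set which were left out of that count. Another 9 genes were over 16-fold higher in bees 205, 210 and 222 but overlapped with the other set. In all 9, the other 5 bees of the higher set lay above all 6 bees of the lower set, and Unresponsive 222 was the bee that did not. Without Unresponsive 222 the count of genes higher in bees 205, 210 and 222 rose from 14 to 36. Fewer bees overlap less by construction, and with any other single bee left out this count was 14 to 23. In the other direction 3 overlapping genes were over 16-fold higher, and for 1 of these 5 of the 6 bees of the higher set lay above all others.

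Many of the genes with large differences carry adjacent ID numbers. All 10 IDs from GB55204 to GB55213 are listed in the files, 9 of them passed the filter, and all 9 were over 16-fold higher in bees 205, 210 and 222. They make up 9 of the 21 genes over 16-fold higher in that set, 4 of them among the 14 counted and 5 among the 9 that overlapped. Their mean levels in that set ran from 16.04 to 1606 CPM. No table at hand places these IDs on the genome, and whether reads were shared between similar genes among them could not be checked, so the level of each is uncertain to that extent.

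The genes higher in bees 213, 230 and 237 were of another kind. None of the 4 reached a mean of 4 CPM, so GB48131, the one with the largest difference, is named after its values were seen. It stood at 0.799, 0.488 and 0.484 CPM in nurses 205, 210 and 222 and at 0.311, 0.437 and 0.523 CPM in the unresponsive bees with those numbers. In the other set it stood at 1.27, 1.08 and 1.55 CPM in nurses 213, 230 and 237 and at 1.02, 0.934 and 1.62 CPM in the unresponsive bees. The groups were separate but near each other, at 0.507 ± 0.161 and 1.245 ± 0.285 CPM (SD, n = 6 each), a fitted log2 difference of -1.29 ± 0.26 (SE). The 4 genes had a median log2 difference of -0.84 in nurses and -1.06 in unresponsive bees.

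**Figure D3:**
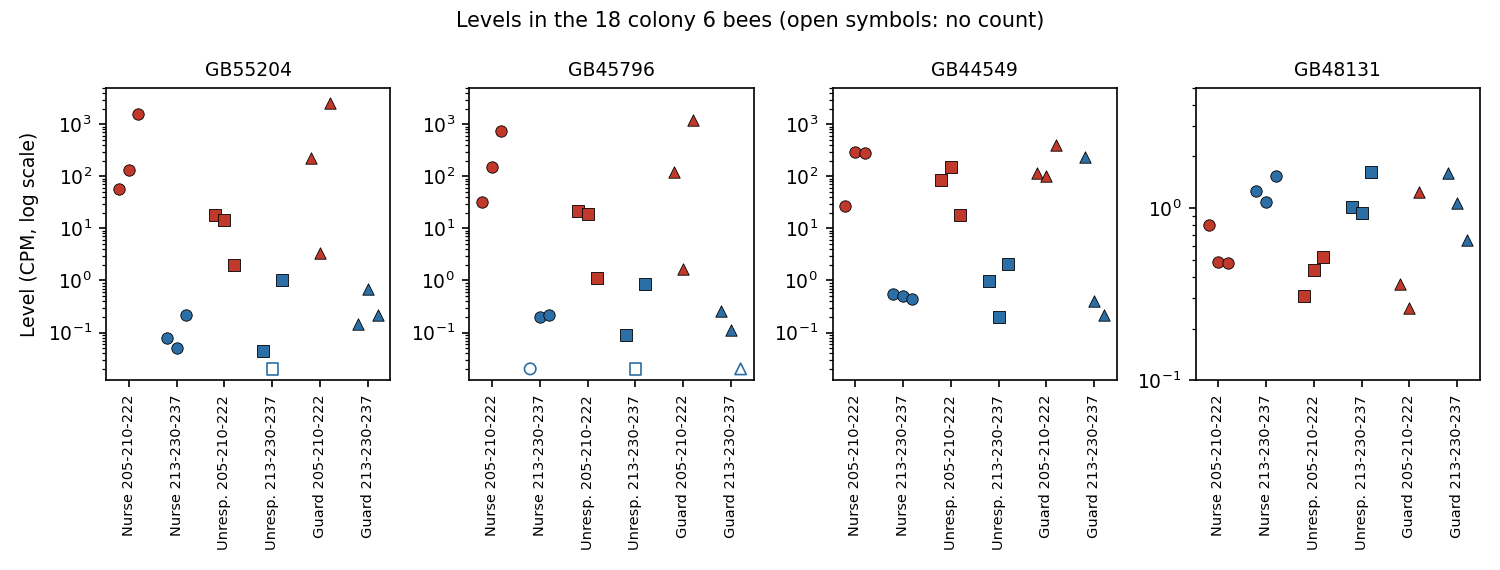
Levels of 4 genes in each of the 18 colony 6 bees in CPM (vertical axis, log scale, with its own range for GB48131), by type and number set. Circles are nurses, squares unresponsive bees and triangles guards, in the order of the title numbers, red for 205, 210 and 222 and blue for 213, 230 and 237. Open symbols mark bees with no read, drawn at the foot of the axis. For GB44549 the guard numbered 213 stands at 233 CPM, with the red points.

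Most separation between the sets was slight. Without regard to size, 56 genes (0.504%) were higher in every bee of 205, 210 and 222 and 54 (0.486%) in every bee of 213, 230 and 237. These 110 genes had a median size of the log2 difference of 0.22, and 66 of them differed by less than 1.2-fold. They were not weakly expressed, with a median level of 57.0 CPM. GB53305, picked afterwards because it had the highest CPM among those higher in bees 213, 230 and 237, ranged from 2353 to 2883 CPM in bees 205, 210 and 222 and from 2894 to 3196 CPM in the others. Its means were 2638 ± 221 and 3023 ± 118 CPM (SD, n = 6 each), and its fitted log2 difference was -0.20 ± 0.06 (SE).

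Without regard to overlap, 172 genes (1.55%) were at least 1.5-fold higher in bees 205, 210 and 222 and 169 (1.52%) in bees 213, 230 and 237. Nearly equal counts thus passed the fold in each direction, whereas those that also did not overlap numbered 14 against 4. The 14 genes held 26.4% of the weight of the first component and 5 of its 10 heaviest genes, and the 4 genes held 0.116%. With all 18 counted genes left out, the first component of the remaining 11095 genes took 22.0% of the variance, and Nurse 222 at 2.33 then lay close to Unresponsive 230 at 0.233. With all 341 genes past 1.5-fold left out, the first component took 21.5% and the sets were mixed. Nurse 222 at -13.2 and Unresponsive 222 at -19.1 then lay below 0. Nurse 213 at 0.906, Nurse 230 at 5.82 and Unresponsive 230 at 9.61 lay above it. Both lists of genes were picked by the difference between the sets in these same bees, so leaving them out brings the sets together by construction.

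Whether nurses and unresponsive bees differed more in 1 set than in the other was tested across all genes, since the division was not chosen on that difference. No gene passed (0 of 11113, 0%, edgeR quasi-likelihood test with Benjamini-Hochberg adjustment), 472 had an unadjusted p under 0.05, and DESeq2 called 10. With the title number as a block, so that each nurse was set against the unresponsive bee of its number, edgeR again called 0 (smallest adjusted p = 0.128), and 780 genes had an unadjusted p under 0.05. GB55875, with the smallest p of genes with a positive interaction, did not pass. Its level was 39.4 ± 3.698 CPM in the nurses and 41.8 ± 4.30 CPM in the unresponsive bees of 205, 210 and 222, and 36.1 ± 4.53 and 12.2 ± 3.94 CPM in those of 213, 230 and 237 (SD, n = 3 each; edgeR log2 interaction 1.65 ± 0.27 SE, adjusted p = 0.252). The unresponsive bees of 213, 230 and 237 were thus the low group. GB40580, in the opposite direction, stood at 54.3 ± 1.12, 47.8 ± 0.741, 49.7 ± 3.97 and 63.6 ± 3.56 CPM in the same order (SD, n = 3 each; edgeR log2 interaction -0.54 ± 0.09 SE, adjusted p = 0.252). The 14 genes did not pass either, GB55204 with an edgeR adjusted p of 0.960 and GB45796 with 0.961, although their fitted differences were larger in nurses.

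Behavioural type itself gave no call once the number set was a term in the model. Between unresponsive bees and nurses 0 of 11113 genes (0%) passed by the edgeR quasi-likelihood test, 294 had an unadjusted p under 0.05, and DESeq2 called 0. GB53683 stood at 69.5 ± 2.18 CPM in unresponsive bees and 61.6 ± 2.49 CPM in nurses (SD, n = 6 each; edgeR log2 difference 0.18 ± 0.04 SE, adjusted p = 1.00). GB47718 stood at 40.1 ± 5.33 against 51.8 ± 2.16 CPM (SD, n = 6 each; edgeR log2 difference -0.37 ± 0.08 SE, adjusted p = 1.00). These had the smallest p in each direction, and neither passed. Without the set term 265 genes had an unadjusted p under 0.05 and again 0 passed.

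The 6 guards of colony 6 carry the same numbers and were not among the 12 bees compared, so the 14 genes could be followed by number in a further behavioural type. They may have been among the libraries whose components led to the division, and in guards the number set and the virus load cannot be told apart. Across all genes the guards gave no call (0 of 10799, 0%, edgeR quasi-likelihood test, smallest adjusted p = 0.172), 635 genes had an unadjusted p under 0.05, and DESeq2 called 38, of which 5 were among the 14. Of the 14 genes 13 could be tested in guards, and all 13 had higher fitted levels in guards 205, 210 and 222, with a median log2 difference of 3.13. Over all genes in both fits the median was 0.00 when rounded and 57.7% of 10777 had the same direction as in the 12 bees. In 6 of the 14 genes the guards did not overlap, against 5.55% of all genes tested in guards for that direction and 6.10% for the other. Of the 4 genes 2 could be tested, both were lower in guards 205, 210 and 222, and their median log2 difference was -0.53.

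Single guards did not all follow their number. GB55204 stood at 221 CPM in Guard 205, 3.32 in Guard 210 and 2587 in Guard 222, and at 0.145, 0.676 and 0.217 CPM in guards 213, 230 and 237. The fitted log2 difference was 11.49 ± 3.39 (SE), and it did not pass (edgeR adjusted p = 0.790). GB45796 likewise stood at 122, 1.69 and 1199 CPM in guards 205, 210 and 222 and at 0.254, 0.113 and 0 CPM in guards 213, 230 and 237. Guard 222 was highest for both genes, as Nurse 222 was among nurses, while Guard 210 lay near the lower set. The summed level of the 14 genes was 1006 CPM in Guard 205, 464 in Guard 210 and 7130 in Guard 222, against 458 in Guard 213, 27.4 in Guard 230 and 18.2 in Guard 237. Guard 213 thus reached the level of Guard 210. Of the 14 genes, 13 lay above all 6 nurses and unresponsive bees of 213, 230 and 237 in Guard 205, 12 in Guard 210, 14 in Guard 222 and 8 in Guard 213, but 1 each in Guard 230 and Guard 237. Of all 11113 genes, 19.8% lay above those 6 bees in Guard 205, 22.4% in Guard 210, 22% in Guard 222, 26.3% in Guard 213, 25.4% in Guard 230 and 16% in Guard 237.

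The log2 differences of the 12 bees and of the guards correlated across 10777 genes with Pearson's r of 0.562 and Spearman's rho of 0.235. Without the 14 genes r was 0.440 and rho 0.233 over 10764 genes, and r was 0.213 over the 10540 genes under 1.5-fold in the 12 bees. Genes are not independent replicates, and this is given as a description. The guard genes with the smallest p were other ones: GB55039 stood at 134 ± 8.17 CPM in guards 205, 210 and 222 and 80.4 ± 12.3 CPM in guards 213, 230 and 237, and GB48816 at 42.1 ± 3.62 and 65.3 ± 3.66 CPM (SD, n = 3 each). Neither passed (edgeR adjusted p = 0.172 for both). In Guard 222 the reads with no unique alignment were 3.78% of counted reads, and in the other guards 2.86% to 3.07%. The part of those reads in the result was not tested.

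**Figure D4:**
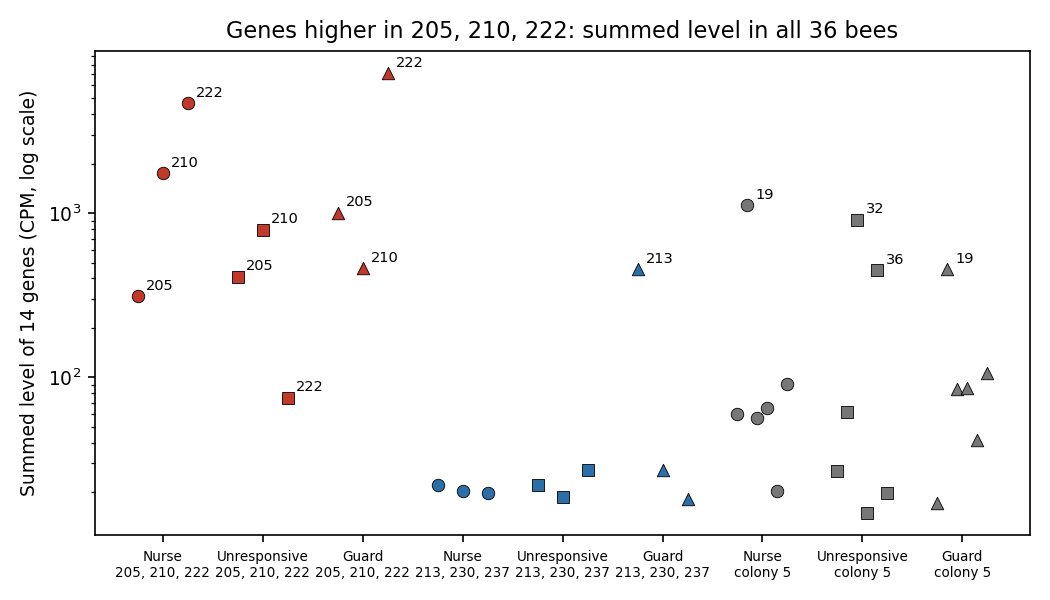
Summed level of the 14 genes higher in bees 205, 210 and 222, in CPM (vertical axis, log scale), in all 36 bees by type and by number set or colony. Points of 311 CPM or more, and all those numbered 222, carry their title number. Nurse 222 at 4651 and Guard 222 at 7130 are the highest, Guard 213 at 458 lies with the first set, and colony 5 ranges from 15.0 to 1118.

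The 18 bees of colony 5 carry other numbers and are not divided by the sets, and the same genes also varied widely there. Like the guards, they may have been among the libraries of the components. The SD of log2 CPM over its bees had a median of 2.13 for the 14 genes, against 0.149 over all tested genes, and 0.414% of all tested genes exceeded 2.13. For the 4 genes that median was 0.438. The summed level of the 14 ranged from 15.0 to 1118 CPM with a median of 63.5, and it was high in Nurse 19, Unresponsive 32 (913 CPM), Guard 19 (456 CPM) and Unresponsive 36 (451 CPM). By type, the sum ran from 20.4 to 1118 CPM in nurses, 17.1 to 456 in guards and 15.0 to 913 in unresponsive bees. Its relation to type was not tested. The bees named for high sums belong to all 3 types, and 2 of them share the number 19. The third bee of that number, Unresponsive 19, stood at 62.0 CPM, and the other bees numbered 32 and 36 at 20.4 to 84.7 CPM. GB55204 reached 162 CPM in Nurse 19 and 110 CPM in Guard 19 but had no read in Unresponsive 32.

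In colony 5 some of the 14 genes rose and fell with GB55204 from bee to bee. Each of the other 13 was correlated with it over the 18 bees, with 100000 permutations each and adjustment over the 13 relations. The permutations moved all 18 bees freely, without regard to number, type or virus load, so their p-values take the bees as independent. By both Pearson's r and Spearman's rho 3 genes passed, and a further 1 passed by r alone (r = 0.590, adjusted p = 0.0325; rho = 0.533, adjusted p = 0.0791). For the others the relation did not pass, which does not show that they were unrelated. The 3 genes that passed by both were GB45796, GB55206 and GB55213. With GB55204 they make 4 genes, and 3 of these 4 carry IDs from the run GB55204 to GB55213. Whether reads were shared among the IDs of that run could not be checked.

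GB44549 was picked as a second point of reference after its values were seen, so its relations are described without a test. Its r with GB55204 was 0.221 and its rho 0.159. Of the remaining 12 genes, 7 had a rho of 0.5 or more with GB44549, from 0.593 to 0.970, and the next highest was 0.393. None of these 7 passed with GB55204, and none of the 3 that passed with GB55204 reached a rho of 0.5 with GB44549. The rules for these groups are unlike, since the rule for GB55204 uses adjusted p-values and that for GB44549 rho alone. By the rho line 4 genes reached 0.5 with GB55204. They include GB52864, whose rho was 0.533 with GB55204 and -0.250 with GB44549.

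The closest relation with GB55204 was that of GB45796, with r = 0.980 (adjusted p = 6.5e-05) and rho = 0.956 (adjusted p = 0.00013; permutation). These raw p-values were 1e-05, the smallest that 100000 permutations can give. Without Nurse 19 and Guard 19, the bees farthest from the median of GB55204, r was 0.967. Within the 13 colony 5 bees of high virus load r was 0.977 and rho 0.909, and the 5 of low load were too few for a value. The other genes that passed fell more within the 13. GB55206 went from r = 0.908 and rho = 0.871 to 0.842 and 0.669. GB55213 went from r = 0.718 and rho = 0.754 to 0.556 and 0.553. For GB44549 with GB55204 r was -0.189 without Nurse 19 and Guard 19, and 0.0588 within the 13. So GB45796 lay close to a line with GB55204 across the range.

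**Figure D5:**
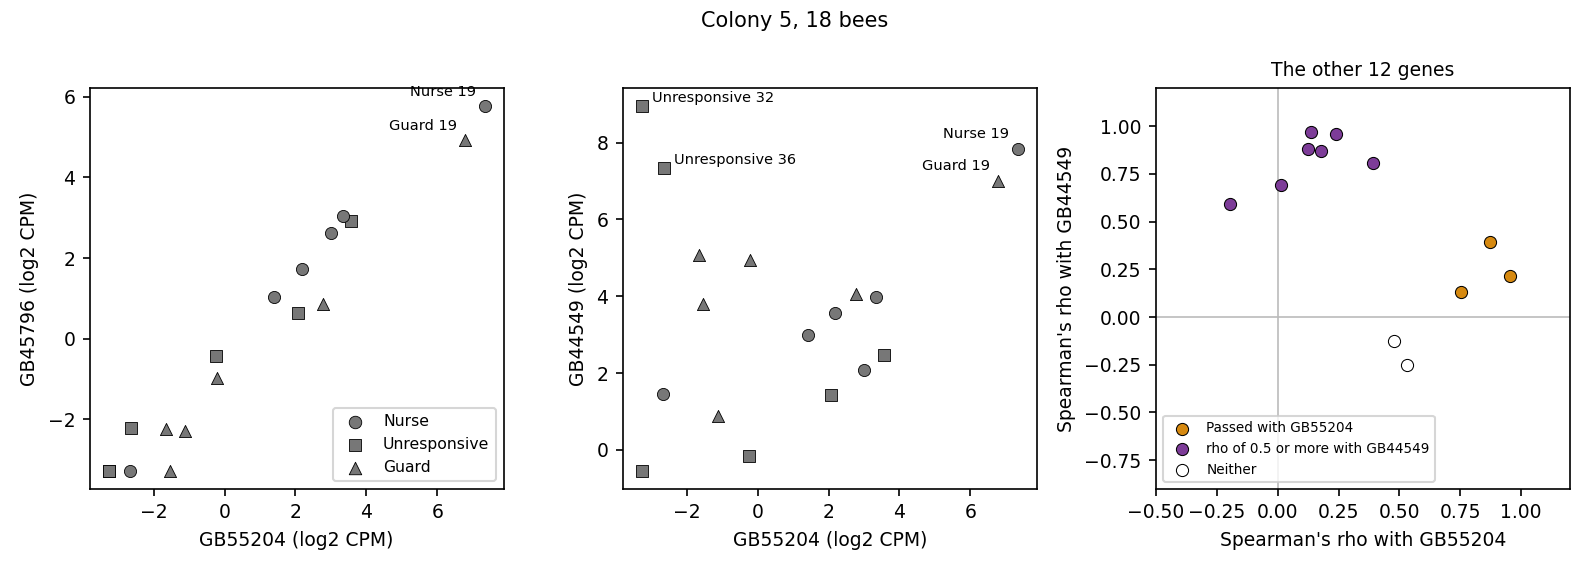
Left and middle, log2 CPM of GB45796 and of GB44549 (vertical axes) against GB55204 (horizontal axes) in the 18 colony 5 bees, with circles for nurses, squares for unresponsive bees and triangles for guards. Right, Spearman's rho of each of the other 12 genes with GB55204 (horizontal axis) and with GB44549 (vertical axis) over the same bees, orange where the relation with GB55204 passed and purple where rho with GB44549 was 0.5 or more. GB45796 rises with GB55204 at rho = 0.956, rho is 0.159 for GB44549, and the right panel shows 3 orange, 7 purple and 2 open points.

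The summed levels of these genes are given for single bees, with GB44549 and its 7 genes as the GB44549 group and GB55204 and its 3 genes as the GB55204 group, both formed after the values were seen. In Unresponsive 32 the 8 genes of the GB44549 group summed to 909 CPM and the 4 genes of the GB55204 group to 2.79 CPM. In Unresponsive 36 the sums were 444 and 5.66 CPM. In Nurse 19 both were high, at 602 and 512 CPM. Unresponsive 32 and Unresponsive 36 had high virus loads of 16836 and 17670 RPM, and Nurse 19 a low load of 63.9 RPM. Guard 19 had a high load of 17990 RPM and sums of 287 and 167 CPM. The part of virus load in these sums was not tested. So high levels of the first group occurred with and without the other.

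In colony 6 a guard came nearest to high levels of the GB44549 group without the GB55204 group. In Guard 213 the GB44549 group summed to 449 CPM, with 7 of its 8 genes above all 6 nurses and unresponsive bees of 213, 230 and 237, while the GB55204 group summed to 6.90 CPM with 1 of its 4 genes above. In Guard 210 the sums were 438 and 17.4 CPM, with 7 of 8 and 4 of 4 genes above. GB44549 itself stood at 233 CPM in Guard 213, as against 0.395 in Guard 230 and 0.217 in Guard 237, and at 115, 101 and 406 CPM in guards 205, 210 and 222.

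Among the 12 bees every one of these genes is higher in bees 205, 210 and 222 by the rule that chose it, and the sums show only how the bees of that set differed. The GB55204 group summed to 183 CPM in Nurse 205, 700.0 in Nurse 210 and 3336 in Nurse 222, and to 108 CPM in Unresponsive 205, 108 in Unresponsive 210 and 10.2 in Unresponsive 222, against at most 7.56 in the other set. The GB44549 group summed to 124 CPM in Nurse 205, 987 in Nurse 210 and 1309 in Nurse 222, and to 298 CPM in Unresponsive 205, 679 in Unresponsive 210 and 51.9 in Unresponsive 222. Nurse 222 was highest in both, but Unresponsive 205 and Unresponsive 210, at the same level in the first group, differed in the second. GB44549 stood at 27.5, 292 and 277 CPM in nurses 205, 210 and 222 and at 86.2, 153 and 18.3 CPM in the unresponsive bees of those numbers, and between 0.197 and 2.1 CPM in the other 6 bees. Its fitted log2 difference between the sets was 7.48 ± 1.00 (SE).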

How the data were processed

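Per the submitters' processing notes, the tools were CASAVA 1.8.2, HTSeq, TopHat2 2.0.10, SAMtools 0.1.19 and Bowtie2 2.1.0; order, settings and the strand option of the counting were not given in the sources used here. Each bee has 1 deposited file of raw counts of reads by gene ID, whole numbers without normalization by the authors. The 5 summary lines that name no gene were left out of every library size and test; the largest, reads in no gene, held 28.5% to 29.5% of counted reads in the 12 bees.

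Library sizes were TMM-scaled over all 36 libraries. In R 4.3.3, edgeR 4.0.16 gave the filter (filterByExpr) and robust quasi-likelihood fits with type and number set as terms, Benjamini-Hochberg adjustment was applied with a threshold of 0.05, and DESeq2 1.42.0 was the alternative. Log2 CPM used a prior count of 2. Standard errors of log2 differences were derived from the edgeR fits, as the size of the difference over the square root of the F statistic. These fits took the bees as independent and not as paired by number. For the difference between the sets the standard error is thus part of the description and not a test. Permutations used Python 3.11.15, NumPy 2.4.6 and SciPy 1.17.1, and figures matplotlib 3.10.9. The count model was tested on simulated data.

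The number sets, gene lists and tests were chosen with earlier results of these data known. Genes named by rule have a mean of at least 4 CPM and the greatest difference, 2 per direction, or the smallest p in each direction where none passed. The gene lists and cell type markers could not be used, since no ID matched. Each library is a separate bee, and p-values measure the spread between bees.

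The numbers were checked as pairs: a nurse and an unresponsive bee of the same number deviated together from their type means in all 6 pairs (r from 0.107 to 0.356), so the numbers were taken to pair the bees. That comes from the data, which also chose the sets: a nurse and an unresponsive bee of the same set but other numbers also reached r up to 0.461 (median 0.136, against 0.242 for the same number), and the number and the set were not separated. Each of the 12 title numbers in the series also has its own first library index, and each of the 3 types its own second index, so neither number nor type can be told apart from its index.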

Additional observations from a re-analysis of the deposited data

Results flagged for a closer look

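Of 30 series of 6 bees examined for a bee far from the rest, 8 had such a bee by Dixon's 95% limit. The nominal rate of 1 in 20 assumes normally distributed values, whereas CPM was used without a log scale and spread widely. The summed series also contain GB55204 and GB45796, so the series are not independent. The 8 can therefore not be compared with that rate. No explanation was tested for any of the 8. Among bees 205, 210 and 222, Nurse 222 stood far above the next bee in the summed level of the 14 genes (4651 against 1745 CPM), in GB55204 (1563 against 134 CPM) and in GB45796 (762 against 150 CPM). Among bees 213, 230 and 237, Unresponsive 237 stood above the next bee in GB55204 (1.02 against 0.221 CPM) and in GB45796 (0.840 against 0.221 CPM). Among the colony 6 guards, Guard 222 stood apart in the summed level of the 14 genes (7130 against 1006 CPM) and in reads with no unique alignment (3.78% against 3.07%). Guard 213 stood apart in gene counts (27.5 against 19.9 M).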

How the results depend on the processing

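The 18 genes counted between the number sets were the same 18 with DESeq2 size factors, with DESeq2 log2 differences and without the type term. A line at a log2 size of 0.32 in place of 0.58 gave 38 (23 higher in 205, 210 and 222 and 15 in 213, 230 and 237). A 2-fold line gave 15, of which 2 were higher in 213, 230 and 237, and no low-count filter gave 22, with 8 in that direction. With a number left out the count was 28 to 67 (15 to 50 and 9 to 21 by direction), and with a single bee left out 20 to 41 (14 to 36 and 4 to 12). Fewer bees overlap less by construction, and 16 to 18 of the 18 remained. The highest values came without number 222 (67) and without Unresponsive 222 (41), against 44 without 205, 28 without 210, 31 without 213, 51 without 230, 44 without 237, 29 without Unresponsive 230 and 35 without Unresponsive 237. The log2 difference of GB55204 was 7.90 without 222, 12.53 without 237 and 7.73 without Nurse 222, and that of GB45796 ranged from 7.81 to 11.14 over numbers and single bees left out.

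In the type by set interaction DESeq2 called 10 genes, and edgeR 0 to 1 with a number left out (1 without 222). In guards DESeq2 called 38, and edgeR 0 to 42 with a guard left out (42 without Guard 210, of which 14 were higher in guards 205 and 222 and 0 were among the 14 genes, 2 without Guard 230 and 1 without Guard 237). A fit nested in all 18 colony 6 bees called 0. With the replicate block, pairing the bees by number, the comparison of types called 0 genes, and 398 had an unadjusted p under 0.05; the interaction with the same block, added after seeing the data, also called 0. With a number left out, the difference in gene counts (-1.61 M) ranged from -3.21 to 0.233 M, reversed without 213 and with an exact permutation p of 0.02 without 237. The share of reads in no gene (-0.133 percentage points) ranged from -0.282 to 0.0789, reversed without 222 (0.0276) and without 237 (0.0789), and the ambiguous share ranged from -0.0135 to -0.00204, with an exact permutation p of 0.03 without 237. The cause of these changes was not tested.

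The limits are the 3 numbers per set, the choice of the sets from the data, and few reads in the lower set (25 for GB55204).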
